A study of Mus musculus with 12 samples.

Results

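MHC class II and its transactivator are described here through 10 listed genes of 37991 in the deposited count table. They are H2-Aa, H2-Ab1 and H2-Eb1, H2-DMa, H2-DMb1 and H2-DMb2, H2-Oa and H2-Ob, Cd74, and Ciita. The genes were chosen by symbol, and all 10 passed the filter on low counts that 18981 genes passed. RNA was sequenced from dendritic cells grown from the bone marrow of C57BL/6 mice (BMDCs). The 12 libraries form 4 groups of 3: Vav1/2/3-/- cells with curdlan, Vav1/2/3-/- cells left unstimulated, wild-type (WT) cells with curdlan, and WT cells left unstimulated. Curdlan is a beta-glucan that binds the receptor Dectin-1, and Vav proteins are exchange factors that relay signals from such receptors. Stimulation lasted 3 hours, at a dose that the labels write as 200 mg/ml. Age, sex and whether replicates came from separate mice are not stated, so p-values measure the spread between these libraries, which may be technical.

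MHC class II molecules present peptides taken up by a cell to CD4+ T cells. An alpha and a beta chain assemble on the invariant chain, encoded by Cd74, and travel to endosomes where the chain is cut away. H2-DM then exchanges its last fragment for other peptides, and H2-O inhibits H2-DM. The genes of the alpha and beta chains have promoters bound by RFX, CREB and NF-Y. Their transcription requires the coactivator CIITA, which binds these proteins rather than DNA. Dendritic cells are known to make much class II, and maturing cells hold it longer on their surface. In C57BL/6 mice the E alpha gene is defective, so the E beta chain of H2-Eb1 has no partner.

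None of the 3 targeted genes passed the test as lower in the libraries labelled Vav1/2/3-/-, and Vav1 and Vav2 were higher in both states. These libraries are called KO-labelled throughout for that reason. Vav2 stood at 265 to 325 CPM (counts scaled to the depth and composition of each library) in KO-labelled libraries with curdlan and 276 to 287 CPM in unstimulated KO-labelled libraries, against 66 to 72.7 CPM and 65 to 70.8 CPM in WT. Vav1 stood at 246 to 330 CPM and 198 to 232 CPM in the KO-labelled groups, against 177 to 179 CPM and 131 to 135 CPM in WT. Vav3 stood at 22.7 to 32.5 CPM and 31.5 to 40 CPM, against 28.3 to 36.9 CPM and 21.6 to 28.9 CPM. It too was higher in unstimulated KO-labelled libraries (log2 fold change 0.48, adjusted p = 0.0225, edgeR), and it did not pass with curdlan (-0.19). Counts over whole genes cannot show whether a deleted exon is missing. Each group was sequenced on a lane of its own, per the library names, so lane and group cannot be told apart. Totals ran from 41421718 to 61217861 counts, and a first principal component with 67% of the variance separated KO-labelled from WT libraries.

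The defining marker Itgax, which encodes CD11c, was present in every library, at 834 to 1020 CPM and 699 to 834 CPM in KO-labelled libraries with and without curdlan, against 1290 to 1380 CPM and 1420 to 1590 CPM in WT. Other cell types can contribute class II reads, and their markers also differed between the labels. The counts of markers below stand beside large shares of all 18981 genes tested. Of these, 24.7% were higher and 26.8% lower in KO-labelled libraries with curdlan, and 21.1% higher and 23.3% lower without. Of 11 B cell markers, 10 were lower in KO-labelled libraries in either state. Their summed level was 14.5 to 22.7 CPM with curdlan and 16.9 to 23.8 CPM without, against 62.5 to 77.2 CPM and 65.8 to 83.4 CPM in WT. Of 13 macrophage markers, 9 were higher and 1 lower with curdlan and 11 higher without, and their sum was 21200 to 24600 CPM and 20600 to 25800 CPM, against 13200 to 14600 CPM and 13400 to 14300 CPM in WT. Among the B cell markers, 1 was at 0 in every unstimulated KO-labelled library. Of 11 markers of conventional dendritic cells, 3 were higher and 4 lower in KO-labelled cells in either state, and they summed to 1300 to 1700 CPM and 1090 to 1450 CPM, against 1840 to 1910 CPM and 1820 to 1960 CPM in WT. Itgax made up most of each sum, so the sums mainly repeat its difference. Clec10a averaged 268 CPM and 271 CPM in the KO-labelled groups, against 128 CPM and 154 CPM in WT. Ccr7 averaged 109 CPM and 77.1 CPM, against 278 CPM and 131 CPM. Mast cell and basophil markers were higher for all 6 tested, with sums of 151 to 274 CPM and 151 to 306 CPM, against 29.8 to 39.5 CPM and 37.6 to 47.1 CPM. The part of these markers in the class II results was not tested. In bulk RNA, fewer cells of a type and less RNA per cell cannot be told apart.

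H2-Aa to H2-Ob lie within the MHC on chromosome 17 of GRCm38, in GENCODE M21. On the plus strand H2-Oa starts at 34092340, H2-DMa at 34119541, H2-DMb2 at 34143307, H2-DMb1 at 34153072, H2-Ob at 34238903, H2-Ab1 at 34257689 and H2-Eb1 at 34305867. H2-Aa lies on the minus strand, from 34287823 down to 34282744. Ciita lies on chromosome 16 (10480059 to 10528418) and Cd74 outside the MHC. All are annotated as protein coding.

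RefSeq's promoter table (GRCm38.p6) holds 7 of the 10 genes. The letters of the class II promoter boxes are shown because some members carry them and the counts did not use them. The 250 bases before each start were searched on both strands for the Y-box letters TGATTGG, a form of the site that NF-Y binds, and for letters within the X box (AAC, any pair of bases, ATG, any base, TG). The letters were chosen after these promoters had been read. Y-box letters were found in 6 members, each once and in the direction of the gene. X-box letters stood 15 to 18 bases before them in H2-DMb2, H2-DMb1, H2-Ob and H2-Eb1. The windows are 56 bases long, 5′ to 3′ on the gene's strand, with both motifs in capitals.
H2-Eb1, chr17:34305762-34305817, plus strand: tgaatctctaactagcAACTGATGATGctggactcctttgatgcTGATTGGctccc
H2-Aa, chr17:34287862-34287917, minus strand: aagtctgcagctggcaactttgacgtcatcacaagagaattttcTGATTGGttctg
H2-DMb1, chr17:34153084-34153139, plus strand: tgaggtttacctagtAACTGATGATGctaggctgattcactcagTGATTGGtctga
H2-DMb2, chr17:34145113-34145168, plus strand: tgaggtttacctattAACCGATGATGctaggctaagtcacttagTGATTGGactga
H2-Oa, chr17:34092290-34092345, plus strand: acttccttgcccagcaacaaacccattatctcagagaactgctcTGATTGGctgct
H2-Ob, chr17:34238802-34238857, plus strand: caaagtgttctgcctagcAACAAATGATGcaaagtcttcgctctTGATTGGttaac

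Across all 32851 promoters in the table, 7.23% held the Y-box letters and 0.466% the X-box letters. X-box letters followed within 40 bases by Y-box letters stood in 6 promoters, or 0.0183%, and 4 of these were members. H2-Eb2, a further class II beta gene, was another. Neither motif was found in the 2 entries of H2-DMa, which says only that these letters are not in those windows.

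The members covered a wide range of levels. Per kilobase of exon, Cd74 led with 6930 ± 1200 CPM in KO-labelled libraries with curdlan and 6530 ± 950 CPM unstimulated, against 3540 ± 100 CPM and 3590 ± 28 CPM in WT (SD, n = 3 each, as for all means below). Cd74 took 0.588% to 1.28% of a library's counts and ranked between 2 and 7 among all genes. H2-Eb1, H2-Aa and H2-Ab1 followed. In unstimulated WT cells they stood at 368 ± 17, 322 ± 6.6 and 286 ± 13 CPM per kilobase, with ranges that did not overlap, whereas in unstimulated KO-labelled cells the ranges of H2-Eb1 and H2-Aa overlapped, as did those of H2-Aa and H2-Ab1. H2-DMb1 (123 ± 3.1), H2-DMb2 (90.4 ± 1.5) and H2-DMa (50.5 ± 2.3 CPM per kilobase in unstimulated WT cells) came next. Ciita (10.8 ± 1.2) and H2-Oa (10 ± 0.9) overlapped in that group, and H2-Ob was lowest at 4.88 ± 0.06 CPM per kilobase. Exon length is the union over annotated transcripts, so a gene with long rare transcripts appears lower.

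**Figure D1:**
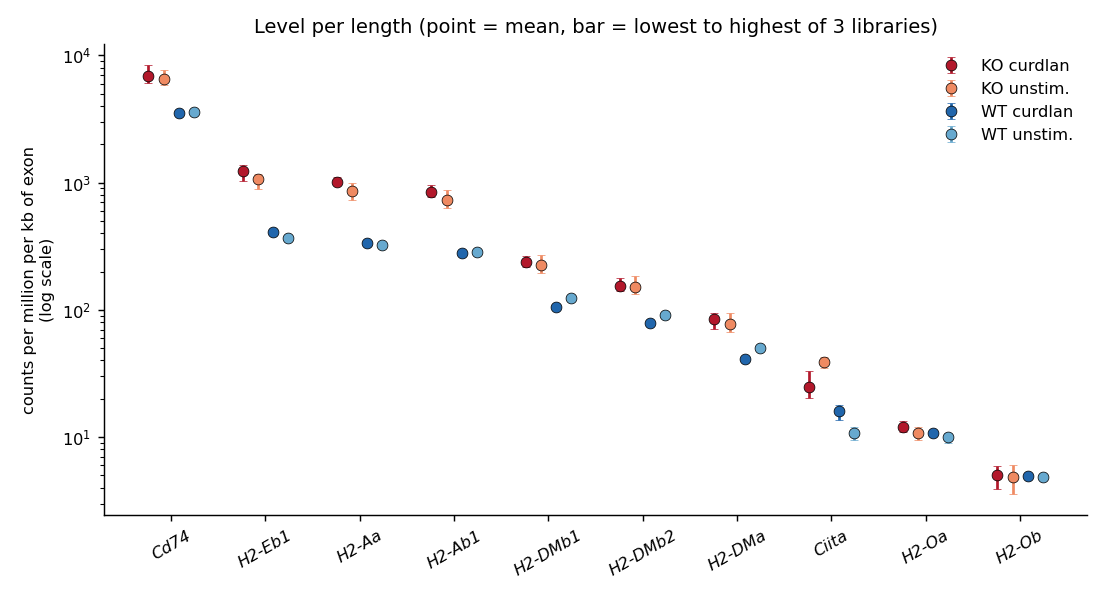
Level of each member per kilobase of exon (CPM per kilobase, log scale) in the 4 groups, with the mean as a point and the lowest and highest of 3 libraries as bars. Cd74 lies far above the other members in every group, and the KO-labelled ranges part from the WT ranges within each state for all members but H2-Oa and H2-Ob.

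The question of what the Vav label changes in these cells was addressed by KO-labelled against WT libraries. The classical chains, the invariant chain, H2-DM and Ciita were all higher in KO-labelled cells, and H2-O was not. In each state 8 of the 10 members rose, none fell and H2-Oa and H2-Ob did not pass the test (edgeR quasi-likelihood test, Benjamini-Hochberg adjusted p under 0.05 over all 18981 genes). Over all genes, 21.1% rose and 23.3% fell in unstimulated cells, and 24.7% rose and 26.8% fell with curdlan. The median log2 fold change over the 10 members was 0.87 unstimulated and 1.01 with curdlan, against -0.01 and 0.01 over all genes.

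**Figure D2:**
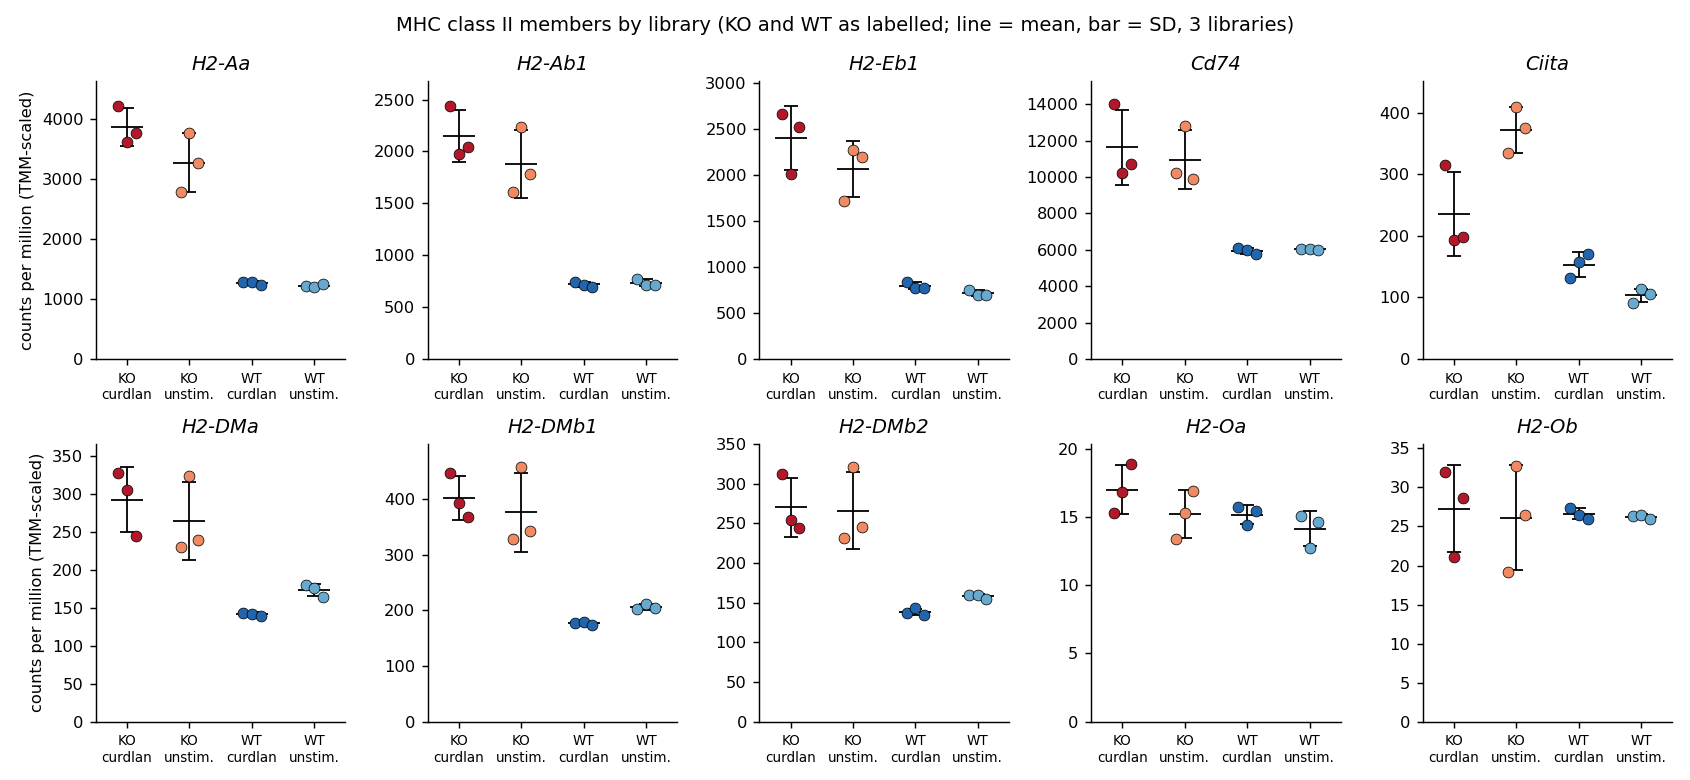
Level of each member in every library (CPM, linear axes from 0), with the group mean as a line and the SD as a bar over 3 libraries. For H2-Aa, H2-Ab1, H2-Eb1, Cd74 and the H2-DM genes all 6 KO-labelled libraries lie above all 6 WT libraries, and for H2-Oa and H2-Ob the labels overlap.

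H2-Aa, the alpha chain of the I-A molecule, had 4220, 3610 and 3770 CPM in KO-labelled libraries with curdlan (replicates 2, 4 and 5), against 1290, 1280 and 1240 CPM in WT libraries with curdlan (replicates 1, 2 and 4). Unstimulated, it had 2790, 3770 and 3260 CPM in KO-labelled libraries (replicates 1, 2 and 5), against 1220, 1200 and 1250 CPM in WT (replicates 1, 2 and 4). The lowest KO-labelled library was thus above the highest WT library in both states. The log2 fold change was 1.61 (SE 0.11, adjusted p = 3.62e-07, edgeR) with curdlan and 1.42 (SE 0.11, adjusted p = 8.11e-07) without.

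H2-Ab1, the beta chain of I-A, had 2440, 1980 and 2040 CPM in KO-labelled libraries with curdlan and 1610, 2240 and 1780 CPM unstimulated, against 747, 710 and 698 CPM and 773, 718 and 710 CPM in WT. The WT values lay within a narrow band, and the KO-labelled values spread more widely around a higher mean. Its log2 fold change was 1.59 with curdlan and 1.35 without (SE 0.12 each). H2-Eb1 had 2670, 2010 and 2530 CPM and 1720, 2280 and 2200 CPM in the KO-labelled groups, against 839, 777 and 771 CPM and 753, 695 and 699 CPM in WT. It rose by 1.59 (SE 0.13) with curdlan and 1.53 (SE 0.12) unstimulated on the log2 scale, with adjusted p = 1.27e-06 and 1.52e-06 by edgeR.

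Cd74 had 14000, 10200 and 10700 CPM in KO-labelled libraries with curdlan and 10200, 12800 and 9880 CPM unstimulated, against 6080, 5990 and 5750 CPM and 6040, 6060 and 5970 CPM in WT. Replicate 2 was the highest KO-labelled library in both states, and no WT library reached the lowest. The log2 fold change was 0.97 (SE 0.13, adjusted p = 7.82e-05, edgeR) with curdlan and 0.86 (SE 0.13, adjusted p = 0.000204) without.

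Within a library the chains and the invariant chain did not keep the WT proportion. Per 100 reads of Cd74 there were 33.6 ± 3 reads of H2-Aa in KO-labelled libraries with curdlan and 29.9 ± 2.8 unstimulated, against 21.4 ± 0.17 and 20.3 ± 0.62 in WT. No KO-labelled library, from 27.4 upward, overlapped WT, up to 21.6. H2-Eb1 per 100 reads of H2-Ab1 was 112 ± 12 and 111 ± 11 in the KO-labelled groups, against 111 ± 1.5 and 97.5 ± 0.82 in WT, so the labels overlapped with curdlan, while unstimulated the lowest KO-labelled library, at 102, was above the highest WT library, at 98.4. Such ratios do not depend on how libraries are scaled. The 6 ratios plotted were chosen after the levels had been seen and carry no test.

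H2-DM, the peptide exchanger, rose less than the chains in each fitted value. H2-DMa, its alpha chain, had 328, 306 and 245 CPM in KO-labelled libraries with curdlan and 231, 324 and 239 CPM unstimulated, against 144, 142 and 139 CPM and 180, 177 and 165 CPM in WT. The labels did not overlap in either state, and WT values with curdlan lay below those without. Its log2 fold change was 1.05 with curdlan (SE 0.13, adjusted p = 3.76e-05, edgeR) and 0.61 without (SE 0.13, adjusted p = 0.00208).

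The beta chains H2-DMb1 and H2-DMb2 share 369 windows of 50 bases, 22.7% of those of H2-DMb1 and 21.2% of those of H2-DMb2, so the split of reads between them is uncertain. H2-DMb1 had 446, 393 and 368 CPM and 328, 457 and 343 CPM in the KO-labelled groups with and without curdlan, against 178, 179 and 173 CPM and 202, 212 and 204 CPM in WT. H2-DMb2 had 312, 254 and 244 CPM and 232, 321 and 245 CPM, against 137, 143 and 135 CPM and 159, 160 and 155 CPM. KO-labelled replicate 2 was the highest library for both genes in both states. With the counts of both genes summed, the log2 fold change was 1.09 with curdlan and 0.82 without, close to the values of H2-DMb1 alone, 1.19 and 0.87 (SE 0.11 each).

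Reads of H2-DMa per 100 of H2-Aa were 7.58 ± 0.99 in KO-labelled libraries with curdlan and 8.08 ± 0.65 unstimulated, against 11.1 ± 0.06 and 14.2 ± 0.91 in WT. Every KO-labelled library was below every WT library for this ratio. Of the annotated exon length of H2-DMa, 10.4% overlaps Brd2 on the opposite strand, and the kit does not mark strand.

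H2-Oa and H2-Ob, the chains of the H2-DM inhibitor H2-O, were the members that did not pass the test. H2-Oa had 15.3, 16.8 and 18.9 CPM in KO-labelled libraries with curdlan and 13.4, 15.3 and 16.9 CPM unstimulated, against 15.7, 14.4 and 15.4 CPM and 15.1, 12.7 and 14.6 CPM in WT. H2-Ob had 32, 21.1 and 28.7 CPM and 19.2, 32.7 and 26.5 CPM in the KO-labelled groups, against 27.4, 26.5 and 26 CPM and 26.4, 26.5 and 25.9 CPM in WT. The KO-labelled values of H2-Ob fell on both sides of the tightly grouped WT values. For H2-Ob the log2 fold change was 0.03 with curdlan (95% interval -0.3 to 0.37, adjusted p = 0.879, edgeR) and -0.01 without (-0.34 to 0.32, adjusted p = 0.97). For H2-Oa it was 0.16 (-0.04 to 0.37) and 0.1 (-0.1 to 0.31). All 4 intervals end below the smallest fitted rise of the other 8 members, 0.61 for H2-DMa in unstimulated cells. That rise has an interval of its own, 0.36 to 0.86, and Ciita with curdlan has 0.28 to 0.96. Both reach below the highest of the 4 ends, 0.37, so these intervals overlap. H2-Oa shares 22.8% of its exon length with an antisense gene, BC051537, and its reads cannot be assigned to a strand.

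Reads of H2-O per read of H2-DM were fewer in KO-labelled libraries within each state. H2-Ob per 100 reads of H2-DMb1 was 6.78 ± 1.3 in KO-labelled libraries with curdlan and 6.91 ± 0.96 unstimulated, against 15.1 ± 0.29 and 12.7 ± 0.29 in WT. H2-Oa per 100 reads of H2-DMa was 5.95 ± 1.6 and 5.86 ± 1.2, against 10.7 ± 0.45 and 8.15 ± 0.86. In the first ratio the highest KO-labelled library, at 7.8, was below the lowest WT library, at 12.5, and in the second the KO-labelled maximum of 7.71 with curdlan exceeded the WT minimum of 7.19 without. H2-Ob, whose window holds both the X-box and the Y-box letters shown above, was among the members not past the test, and H2-DMa, whose entries hold neither, rose.

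**Figure D3:**
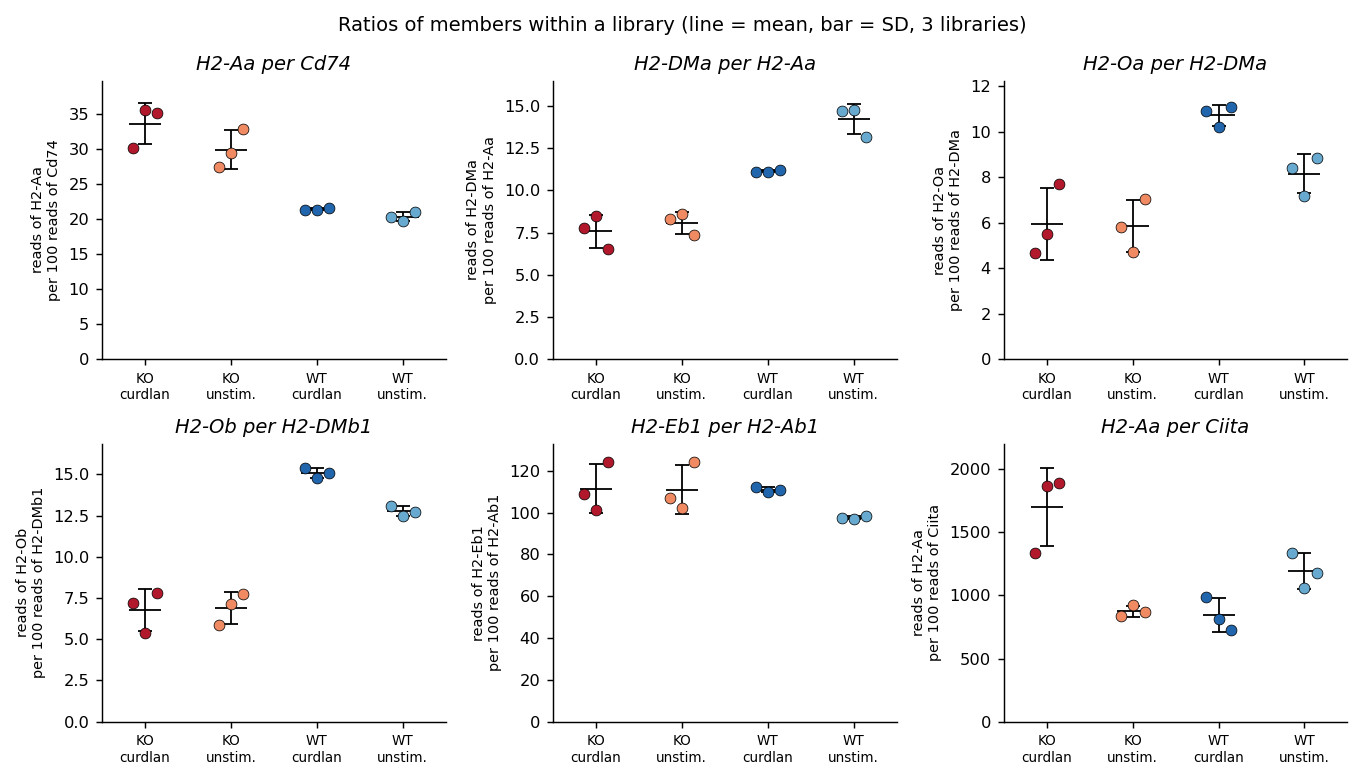
Reads of 1 member per 100 reads of another in the same library, for 6 pairs, with the group mean as a line and the SD as a bar over 3 libraries. KO-labelled libraries lie above WT for H2-Aa per Cd74 and below WT for H2-DMa per H2-Aa and H2-Ob per H2-DMb1, while H2-Eb1 per H2-Ab1 lies near 100 in all groups.

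Ciita, which encodes the class II coactivator, had 315, 193 and 199 CPM in KO-labelled libraries with curdlan, against 131, 158 and 171 CPM in WT with curdlan. Unstimulated, it had 334, 409 and 375 CPM in KO-labelled libraries, against 91.2, 113 and 106 CPM in WT. Thus the gap was wide in unstimulated cells and narrow with curdlan, where the lowest KO-labelled library, at 193, was only just above the highest WT library, at 171. The log2 fold change was 1.85 unstimulated (SE 0.18, adjusted p = 5.66e-06, edgeR) and 0.62 with curdlan (SE 0.17, adjusted p = 0.00971). With curdlan the call was lost when libraries were scaled by their size alone, at 0.38 (adjusted p = 0.0836). Ciita has several alternative promoters, which counts over the whole gene cannot tell apart.

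**Figure D4:**
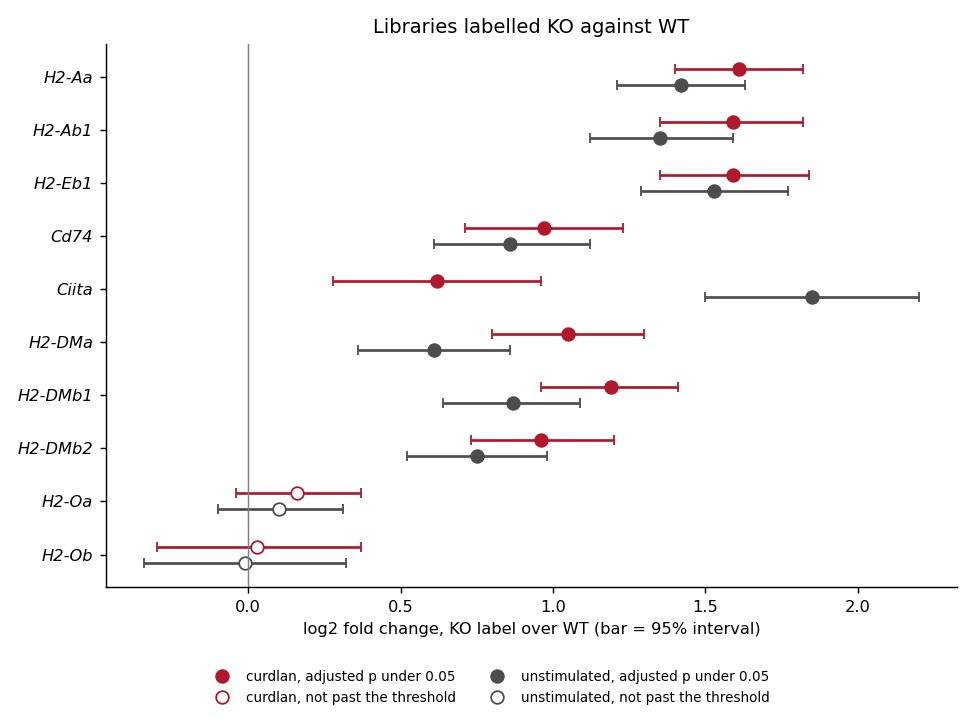
Log2 fold change of each member, KO-labelled over WT, with curdlan (red) and unstimulated (grey), and the 95% interval as a bar; filled points passed the test. Ciita is the member whose values differ most between the states, 0.62 and 1.85, and the intervals of H2-Oa and H2-Ob include 0.

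The authors' deposited table of KO against WT with curdlan gave log2 fold changes of 1.59 for H2-Aa, 0.95 for Cd74 and 0.59 for Ciita. The second of the authors' deposited tables is named an interaction, but its fold changes were those of KO against WT in unstimulated cells, with a median absolute difference of 0.011 from that comparison over 18981 genes, against 0.473 from the difference of the curdlan responses. In the authors' deposited table of that name Ciita stood at 1.86 and H2-Aa at 1.43.

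The effect of curdlan itself was addressed within each label. After 3 hours the class II chains and Cd74 were near their unstimulated levels, and Ciita moved in opposite directions in the 2 labels. In KO-labelled cells 1 of 10 members fell and none rose, where 14.6% of all genes fell and 14% rose. In WT cells 1 of 10 members rose and none fell, where 11.4% of all genes rose and 8.4% fell. That member was Ciita both times. These counts are from the fit without pairs. With replicate number as a block, 5 members passed in WT cells, where 7276 of 18981 genes did. In KO-labelled cells 3 members passed with that block, where 5625 genes did. The difference between the responses passed the test for Ciita alone among the members, in the negative direction, as 3.6% of all genes did, while 1.61% passed in the positive direction.

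Ciita fell with curdlan in KO-labelled libraries by 0.66 on the log2 scale (SE 0.17, adjusted p = 0.0138, edgeR). No KO-labelled library with curdlan, the highest being 315 CPM, reached the lowest unstimulated one at 334 CPM. The call was lost in a fit of those 2 groups alone (adjusted p = 0.0548) and without curdlan replicate 4 (-0.54, adjusted p = 0.0584). In WT libraries Ciita rose by 0.57 (SE 0.17, adjusted p = 0.0372, edgeR), and here too the groups did not overlap, 131 CPM being the lowest with curdlan and 113 CPM the highest without. This call was lost without unstimulated replicate 1, 2 or 4 or curdlan replicate 2 or 4 (0.48 to 0.64, adjusted p = 0.0596 to 0.147), and at 0.43 (adjusted p = 0.0738) where only library size scaled the counts.

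The difference of the responses in Ciita, KO-labelled minus WT, was -1.23 (SE 0.25, 95% interval -1.71 to -0.75, adjusted p = 0.0166, edgeR). It was -1.14 with adjusted p = 0.0562 without unstimulated WT replicate 1, and lay between -1.49 and -1.1 over the alternatives. Plasmacytoid dendritic cells also express Ciita, and the summed level of 7 of their markers was 71.8 to 76.9 CPM in KO-labelled libraries with curdlan and 67.7 to 76.1 CPM without, against 95.4 to 107 CPM and 71.8 to 77.3 CPM in WT. Most of each sum was Tcf4, which other cells also express, at 66.7 CPM and 62.1 CPM on average in the KO-labelled groups, against 75.4 CPM and 50.4 CPM in WT. The defining marker Siglech was near 0, at 0.225 to 0.47 CPM in all libraries, while Spib averaged 2.12 CPM and 3.87 CPM, against 13.4 CPM and 11.8 CPM, and Pacsin1 reached at most 0.885 CPM and 1.77 CPM, against at least 8.92 CPM and 10.2 CPM. Klk1 went the other way, averaging 2.57 CPM and 2.67 CPM, against 0.595 CPM and 0.559 CPM, as did Cox6a2. Of the 7 markers, 2 were higher and 4 lower in KO-labelled libraries with curdlan, and 3 higher and 2 lower without. The shares over all genes were 24.7% higher and 26.8% lower with curdlan, and 21.1% and 23.3% without. The part of these markers in the result was not tested.

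**Figure D5:**
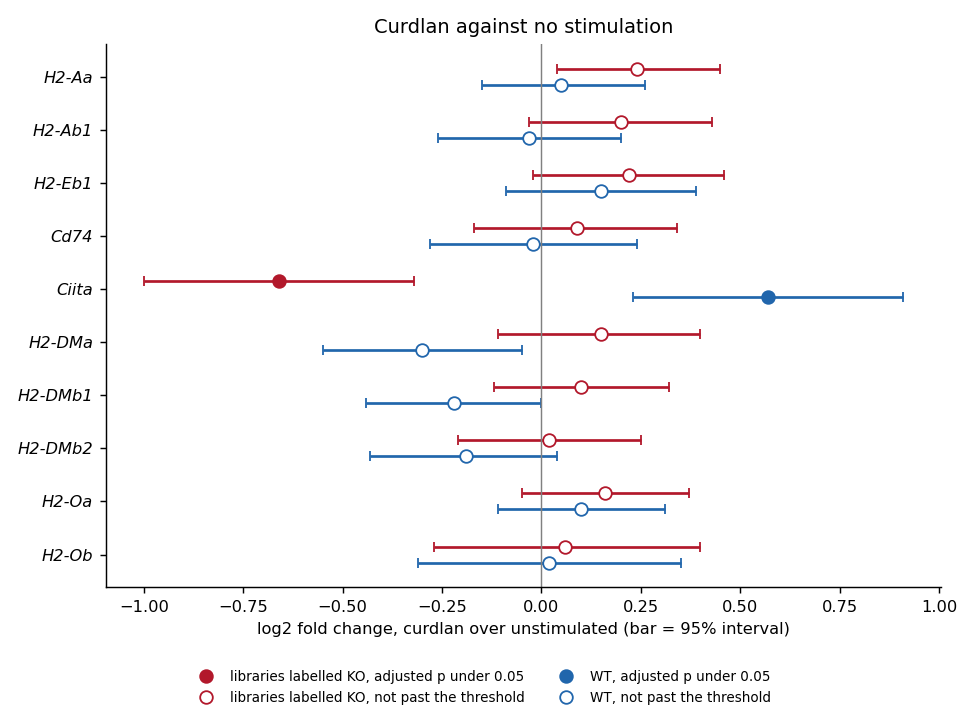
Log2 fold change of each member, curdlan over unstimulated, in KO-labelled (red) and WT (blue) libraries, with the 95% interval as a bar; filled points passed the test. Ciita lies at -0.66 in KO-labelled libraries and 0.57 in WT, and the other 9 members lie within 0.3 of 0.

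Reads of H2-Aa per 100 of Ciita followed from this. They were 1700 ± 310 in KO-labelled libraries with curdlan and 875 ± 43 unstimulated, against 842 ± 130 and 1190 ± 140 in WT. In KO-labelled cells the ratio was higher with curdlan than without in every library, and in WT cells it was lower.

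Among the other members the fitted response in KO-labelled cells was largest for H2-Aa at 0.24 (SE 0.1, adjusted p = 0.104, edgeR) and H2-Eb1 at 0.22 (SE 0.12, adjusted p = 0.207). Unstimulated KO-labelled replicate 2 was the highest of its group for every member but H2-Oa, and without it H2-Aa (0.36), H2-Ab1 (0.35) and H2-DMb1 (0.26) passed as well, with adjusted p = 0.0216, 0.0309 and 0.046. In WT cells H2-DMa stood at -0.3 (SE 0.13, adjusted p = 0.125), H2-DMb1 at -0.22 (SE 0.11, adjusted p = 0.188) and H2-DMb2 at -0.19 (SE 0.12, adjusted p = 0.281), and for each the WT groups did not overlap. With replicate number as a block (a paired fit) these 3 passed (adjusted p = 0.000723, 0.00585 and 0.0103), as did H2-Eb1 at 0.15 (adjusted p = 0.0278). The 3 H2-DM genes also passed in a fit of the 2 WT groups alone (adjusted p = 0.00531, 0.0162 and 0.0367), and H2-DMa did without unstimulated KO-labelled replicate 2 (adjusted p = 0.0493). Scaled by library size alone, H2-DMa stood at -0.43 and H2-DMb1 at -0.36 and both passed, with a median over all genes of -0.167, against -0.034 with TMM scaling. With the replicate numbers of the authors' comparison table in place of those of the count table, the 3 H2-DM genes passed and H2-Eb1 did not. For the difference of the responses, H2-DMa (0.61, adjusted p = 0.0349) and H2-DMb1 (0.48, adjusted p = 0.0368) passed without unstimulated KO-labelled replicate 2. In the paired fit H2-DMa passed for the difference at 0.32 (adjusted p = 0.022), but not with the authors' numbers (adjusted p = 0.122). For curdlan in KO-labelled cells, H2-Aa (0.19, adjusted p = 0.0397) and H2-Eb1 (0.22, adjusted p = 0.0174, edgeR) passed in the paired fit. Neither passed with the authors' numbers.

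The members moved together across the 12 libraries to different degrees. Log2 CPM of H2-Aa, H2-Ab1, H2-Eb1, Cd74, H2-DMb1 and H2-DMb2 correlated with r between 0.94 and 1, values that mainly reflect the gap between the labels. H2-DMa correlated with H2-Aa at 0.93, Ciita at 0.83, H2-Oa at 0.52 and H2-Ob at 0.1. Among 9761 genes outside the list, those most like the mean of H2-Aa, H2-Ab1, H2-Eb1 and Cd74 were H2-Ea-ps (r = 0.993), Grap (0.989), Ankrd33b and Cd209c (0.986 each), Kdr (0.985), Tarm1 (0.984), Scmh1 (0.983) and Zfand3 (0.982). H2-Ea-ps, the E alpha gene that is annotated as a pseudogene, averaged 1930 ± 280 CPM and 1660 ± 210 CPM in KO-labelled libraries with and without curdlan, against 820 ± 11 CPM and 722 ± 15 CPM in WT. Those most like Ciita were Pxn (r = 0.977), Fmnl2 (0.971), Txlnb (0.967), Ifnar1 and Slc39a14 (0.964 each), Med1 and Tlr9 (0.962 each) and Dennd5a (0.956). Tlr9, the receptor for unmethylated DNA, averaged 33.5 CPM and 52.4 CPM in KO-labelled libraries with and without curdlan, against 15 CPM and 11.1 CPM in WT, the same order of groups as Ciita.

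Counts for the other genes of the pathway stand beside the 8428 of 18981 genes that passed between the labels in unstimulated cells and the 9762 that passed with curdlan. Of 12 genes for the promoter-binding complex and its coactivators, 3 were higher and 1 lower in unstimulated KO-labelled cells, and none were higher and 4 lower with curdlan, a smaller share than among all genes in either state. Rfx5, the DNA-binding subunit of RFX, had 22 to 25.6 CPM in unstimulated KO-labelled libraries, against 14.7 to 15.7 CPM in WT (log2 fold change 0.64, adjusted p = 0.000215, edgeR). With curdlan it had 0.25 (adjusted p = 0.0525), and there its partners Rfxap and Rfxank were lower, at -0.34 (adjusted p = 0.0124) and -0.39 (adjusted p = 0.00575). Creb1, whose product binds the X box, was higher by 0.46 unstimulated (adjusted p = 0.000647) and stood at 0.06 with curdlan. None of the 12 passed for curdlan in WT cells or for the difference of the responses, and 4 fell with curdlan in KO-labelled cells, Rfxap (-0.35) and Rfxank (-0.31) among them. Both of these falls were lost without KO-labelled curdlan replicate 2 or 5, Rfxap also without unstimulated replicate 5 and Rfxank without unstimulated replicate 1 or 2 (adjusted p = 0.0556 to 0.104). The Rfxap call against WT was lost without WT curdlan replicate 2, at -0.29 (adjusted p = 0.0568).

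Of 15 tested regulators of Ciita, 9 were higher and 1 lower in unstimulated KO-labelled cells, and 7 higher and 3 lower with curdlan. Irf1, through which interferon gamma induces Ciita, averaged 906 ± 130 CPM and 486 ± 69 CPM in KO-labelled libraries with and without curdlan, against 202 ± 34 CPM and 102 ± 9 CPM in WT. All KO-labelled values lay above all WT values, and the log2 fold change was 2.17 with curdlan and 2.25 without (adjusted p = 4.77e-07 and 2.95e-07, edgeR). Socs1, an inhibitor of JAK kinases, was higher by 2.13 and 2.05. Jak2, a kinase of the interferon gamma receptor, was higher by 0.96 and 0.76. Prdm1, a repressor of Ciita in plasma cells, was higher by 0.8 and 1.69. Unlike Ciita, Irf1 and Socs1 rose with curdlan in both labels, Irf1 by 0.9 in KO-labelled and 0.98 in WT libraries and Socs1 by 1.2 and 1.12. Irf4 rose too, by 0.72 and 1.09. In all, 5 regulators rose and 3 fell with curdlan in KO-labelled cells, 4 rose and 2 fell in WT, and none passed for the difference.

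Of 12 genes of endosomal processing, 5 were higher and 1 lower in KO-labelled cells in each state. Ctsl was higher by 1.35 with curdlan and 1.33 without, Lgmn by 1.21 and 1.19, and Ctsb by 1.03 in both. They encode the proteases cathepsin L, legumain and cathepsin B. Cst7, a cystatin that inhibits such proteases, was higher by 0.75 and 0.83. Ctss, whose cathepsin S makes the last cuts in the invariant chain of dendritic cells, averaged 2230 ± 330 CPM and 2120 ± 370 CPM in KO-labelled libraries with and without curdlan, against 2460 ± 260 CPM and 2640 ± 160 CPM in WT. It did not pass the test, at -0.14 (adjusted p = 0.42) and -0.31 (adjusted p = 0.0929), but was lower in both states with scaling by library size alone (-0.39 and -0.5, edgeR adjusted p = 0.0366, and adjusted p = 0.0122). With that scaling the median over all genes was itself -0.236 with curdlan and -0.191 without. With curdlan, Ctsl rose by 0.71 in KO-labelled and 0.68 in WT libraries. Macrophages also express Ctsl, Lgmn and Ctsb, the macrophage marker sums given above were higher in KO-labelled libraries too, and their part was not tested.

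Of 12 genes of surface turnover and traffic, 4 rose and 1 fell with curdlan in KO-labelled cells, where 5425 of all 18981 genes passed, and 3 rose and 1 fell in WT, where 3759 passed. The other genes of this list did not pass. March1, the ubiquitin ligase that sends class II from the surface to lysosomes, had 56.7 to 69.8 CPM in KO-labelled libraries with curdlan and 120 to 147 CPM without, and 54 to 63.7 CPM in WT libraries with curdlan and 111 to 117 CPM without. It fell by 1.08 (SE 0.1, adjusted p = 1.79e-05, edgeR) in KO-labelled cells and by 0.92 (SE 0.1, adjusted p = 5.53e-05) in WT cells. KO-labelled against WT it stood at 0.04 with curdlan and 0.2 without, neither past the test. Cd83, which opposes March1, rose by 0.65 (adjusted p = 0.00195) in KO-labelled and by 1.54 (adjusted p = 5.07e-06) in WT cells, a difference of -0.89 (SE 0.17, adjusted p = 0.0135, edgeR). It averaged 859 ± 140 CPM and 548 ± 72 CPM in KO-labelled libraries with and without curdlan, against 315 ± 22 CPM and 109 ± 6.4 CPM in WT. Unstimulated KO-labelled cells thus held more Cd83 RNA than WT cells with curdlan, 486 CPM being the lowest of the 3 against a WT maximum of 340 CPM. Of 12 genes of this group, 7 were higher and 2 lower in unstimulated KO-labelled cells, and 4 higher and 1 lower with curdlan. Rab7, a GTPase of late endosomes, was higher by 1.09 with curdlan and 0.72 without. Cd9, a tetraspanin that associates with class II, passed for the difference of the responses at 0.44 (adjusted p = 0.0449), a call lost in turn without each library but KO-labelled curdlan replicate 2 (adjusted p up to 0.129).

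Of the 4 genes for receptors and the ligand of the invariant chain, 2 were higher in KO-labelled cells in each state and none lower. Cxcr2, which is also a neutrophil marker, was higher by 0.68 with curdlan and 1.35 without, and Cd44, which signals with surface CD74, by 0.57 and 0.45. The 9 neutrophil markers summed to 5010 to 7470 CPM and 5410 to 8170 CPM in KO-labelled libraries with and without curdlan, against 3150 to 3640 CPM and 3770 to 4760 CPM in WT, and their part was not tested. Of the other class II genes, H2-Eb2 and H2-Ea-ps were tested and both were higher, H2-Eb2 by 1.1 with curdlan and 1.22 without and H2-Ea-ps by 1.23 and 1.2. H2-Eb2 remained a low transcript, at 8.51 ± 0.52 CPM and 7.35 ± 1 CPM in KO-labelled libraries, against 3.97 ± 0.38 CPM and 3.14 ± 0.2 CPM in WT.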

How the data were processed

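The deposited file of read counts per gene and library, not normalized, was used as given. The programs featureCounts 1.4.6, DESeq2 1.8.2, TopHat2 (given as 2.4.2a), SAMtools 1.2 and FastQC 0.11.1 are named, per the submitters' processing notes. Genome build, annotation and strand setting were not given in the sources used here. Per the labels' protocols libraries were made with a TruSeq RNA kit, a kind that does not mark strand. The authors' deposited tables hold log2 fold changes with standard errors and adjusted p-values, per the file headers; the 18 normalized columns and 6 repeated raw columns in them were not used.

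Genes passing filterByExpr by group (18981) were fitted once over all 12 libraries with 4 group means and TMM scaling, in edgeR 4.0.16 under R 4.3.3 (quasi-likelihood F-test, two-sided, Benjamini-Hochberg over all genes, threshold 0.05); the fit was tested on simulated data. CPM are on TMM-scaled library sizes, and 95% intervals are the estimate ± 1.96 SE. Library totals of 41421718 to 61217861 leave little counting error for most members. Replicates differed by more than counting noise (chi-square per degree of freedom 9.66 to 80.3), and none were merged. The members, gene lists and tests were chosen with earlier results of these data known. All members are named; of each pathway list up to 4 genes past the threshold, largest first, were eligible, with Rfx5, Rfxap, Rfxank, March1 and Ctss always, and some whose call depended on a library are only counted. Likeness used log2 CPM (prior count 2) of genes averaging 2 or more on that scale. Sequences come from RefSeq (GRCm38.p6) and gene positions from GENCODE M21, matched by Ensembl identifier.

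Library names number the WT libraries 1, 2 and 4 in both states. KO-labelled libraries are numbered 1, 2 and 5 unstimulated and 2, 4 and 5 with curdlan. Deviations from the group means correlated between same-numbered WT libraries at 0.395, 0.239 and 0.129, and between same-numbered KO-labelled libraries, of which there are 2 pairs, at 0.287 and 0.557. Different numbers gave -0.29 to 0.082 in WT and -0.47 to 0.246 in KO-labelled libraries. Deviations within a group sum to 0, so positive values for same numbers push those for different numbers down, and the 2 sets are not independent. The main fit used no pairs, and only the paired fit took the WT numbers as pairs. The paired fit blocked the KO-labelled numbers too, where only 2 pairs share a number. It is given where it changes the call of a member. The authors' comparison table gives the WT curdlan columns the numbers 4, 1 and 2 where the count table has 1, 2 and 4, which would pair WT libraries at -0.245, 0.082 and -0.158. Alternatives were DESeq2 1.42.0, upper-quartile scaling, library size alone, no filter, the paired fits, 2 groups alone, each library left out, and H2-DMb1 with H2-DMb2 summed; the second numbering and the ratios were added after seeing the data.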

Additional observations from a re-analysis of the deposited data

Results flagged for a closer look

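The response of Ciita to curdlan differed between the labels by a test of the difference itself: it was -1.23 on the log2 scale, KO-labelled minus WT (SE 0.25, adjusted p = 0.0166, edgeR), with a fall in KO-labelled libraries and a rise in WT. Each response rests on 3 libraries a group, and adjusted p was 0.0562 without unstimulated WT replicate 1.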

How the results depend on the processing

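Of 950 values of members under alternatives, 919 stayed on the same side of the threshold, 10 lost the call and 21 gained it. None changed sign with a call in either setting. Values with no call in either setting could change sign and are among the 919. Cd74 for curdlan in KO-labelled cells, at 0.09, ran from -0.11 to 0.21. Over the members and the pathway genes compared this way, 66 such values changed sign. KO-labelled against WT, 8 members passed in both states in each fit with a library left out. For curdlan in KO-labelled cells, 1 member passed, 3 with the replicate block, 1 with the block and the authors' numbers, 0 with the 2 groups alone and 0 to 4 with a library left out; over all genes 5425 passed, 3098 with the 2 groups alone and 3488 to 6091 with a library left out. For curdlan in WT, 1 member passed, 2 with library size alone, 5 with the replicate block, 4 with the block and the authors' numbers, 4 with the 2 groups alone and 0 to 2 with a library left out; over all genes 3759 passed, 6123 with library size alone, 7276 with the block and 2187 to 4273 with a library left out. For the difference, 1 member passed, 2 with the replicate block, 1 with the block and the authors' numbers and 0 to 3 with a library left out; over all genes 989 passed, 2180 with DESeq2, 2671 with the block and 385 to 2859 with a library left out. The cause of these moves was not tested. With library size alone the median over all genes was -0.199 for curdlan in KO-labelled cells (-0.001 with TMM), -0.167 in WT (-0.034 with TMM), and -0.191 and -0.236 for KO-labelled against WT unstimulated and with curdlan (-0.01 and 0.009 with TMM). With 3 libraries a group, calls for small responses such as those of the H2-DM genes in WT cells depended on which libraries set the spread. The main fit shares 1 estimate of the spread over the 4 groups, and there these genes did not pass. In the fit of the 2 WT groups alone they did. The SD of H2-DMa was 2.5 CPM with curdlan and 8 CPM without in WT, against 43 CPM and 52 CPM in KO-labelled libraries.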
